A study of Mus musculus with 6 samples.

Results

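The 41 genes described here are a named list of V-ATPase subunits and lysosomal proteins. They were found by gene symbol among the 17975 genes of the expression table, and all 41 had enough counts to be tested among 13805 genes. By role, 6 genes encode V0 subunits, 8 encode V1 subunits, 2 encode accessory V-ATPase proteins, 5 encode membrane proteins, 9 encode proteases, 5 encode glycosidases, 4 encode proteins of lipid breakdown and lipid export, and 2 encode progranulin and TFEB.

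The lysosome degrades proteins, glycans, glycogen and lipids delivered by endocytosis and autophagy, and its enzymes work in an acid lumen. The vacuolar H+-ATPase (V-ATPase) makes the lumen acid: its V1 sector hydrolyses ATP in the cytosol, and its V0 sector carries protons through the membrane. Many lysosomal genes carry a palindromic promoter element, the CLEAR element, to which the transcription factor TFEB and its relatives bind. In the liver, both hepatocytes and macrophages are rich in lysosomes.

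RNA was sequenced from whole liver tissue of 3 Hom mice and 3 WT mice, 1 liver per mouse. The Hom mice are NEK7 hepatocyte knock-out animals (NEK7 fl/fl with Alb-Cre, on a C57BL/6 background), in which the albumin promoter drives Cre and removes the kinase gene Nek7 from hepatocytes, while the other cells of the liver keep it. The labels call the control mice WT and give no further allele for them. No treatment is named for either group, and the labels give neither the age nor the sex of these mice. The study used both sexes of its knock-out mice.

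The libraries held between 19349418 and 19730236 estimated counts per liver. Levels are given as CPM, counts scaled by library size, after correction with TMM factors, which account for library composition and were 0.806 to 0.924 in WT and 1.09 to 1.23 in Hom livers. In the order of replicates 1, 2 and 3, which is kept throughout, Nek7 was at 62.9, 69.1 and 63.7 CPM in WT and at 14.5, 18.1 and 16.7 CPM in Hom livers, so every Hom liver lay below every WT liver (log2 fold change −1.99, standard error (SE) 0.10, adjusted p = 0.000159, the quasi-likelihood test of edgeR, adjusted over all genes tested by Benjamini and Hochberg). WT replicate 1 and Hom replicate 1 stood apart from the other livers of their groups: chi-square per degree of freedom was 143 and 163 for the pairs with WT replicate 1 and 85.3 and 79.9 for those with Hom replicate 1, against 23.8 and 26.6 for the remaining pair of each group. The Y-linked genes Kdm5d and Ddx3y had no count in Hom replicate 1 and at least 243 and 630 in every other liver. By these genes Hom replicate 1 read as female and the other livers as male, and sex was not part of the fit. Alb, the albumin gene that defines hepatocytes, was read in all livers, but the hepatocyte markers were lower in Hom: 16 of 23 fell and none rose, with a summed level of 194172 to 230821 CPM in WT and 84922 to 119726 CPM in Hom livers.

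The lysosomal genes did not move as 1 block. Of the 41 genes, 12 were higher in Hom livers (29.3%), 5 were lower (12.2%) and 24 did not pass the threshold (adjusted p under 0.05, edgeR). Among all genes tested, 21.5% were higher and 20.1% were lower, so both shares lie near the background, and no result about the list is read from them. Leaving out 1 liver at a time gave 7 to 14 higher and 3 to 6 lower genes; only 7 were higher without Hom replicate 2, 8 were higher without WT replicate 2 or WT replicate 3, and 3 were lower without WT replicate 2, Hom replicate 2 or Hom replicate 3. The split also depended on scaling: 14 were higher and 3 lower with upper-quartile factors, 9 and 7 after a correction for gene length, and 31 and 0 with the libraries scaled by their totals alone, which moved the median of all genes up by 0.45 on the log2 scale. With TMM the median was 0.16 over the 41 genes (log2 fold change), against 0.00 over all genes tested, and this excess was 0.09 without Hom replicate 1 and 0.25 without Hom replicate 3. The values ran from −0.57 for Gaa to 2.14 for Atp6v0d2. In 16 of the genes all Hom livers lay above all WT livers and in 7 all lay below, where the share of all genes was 28.7% above and 27.0% below. Added up, the 41 genes came to 6353, 6107 and 5855 CPM in WT and 6803, 6800 and 6205 CPM in Hom livers. The sums were thus close, and the lowest Hom sum lay below the highest WT sum. In bulk tissue, fewer cells of a type and less RNA per cell cannot be told apart.

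**Figure D1:**
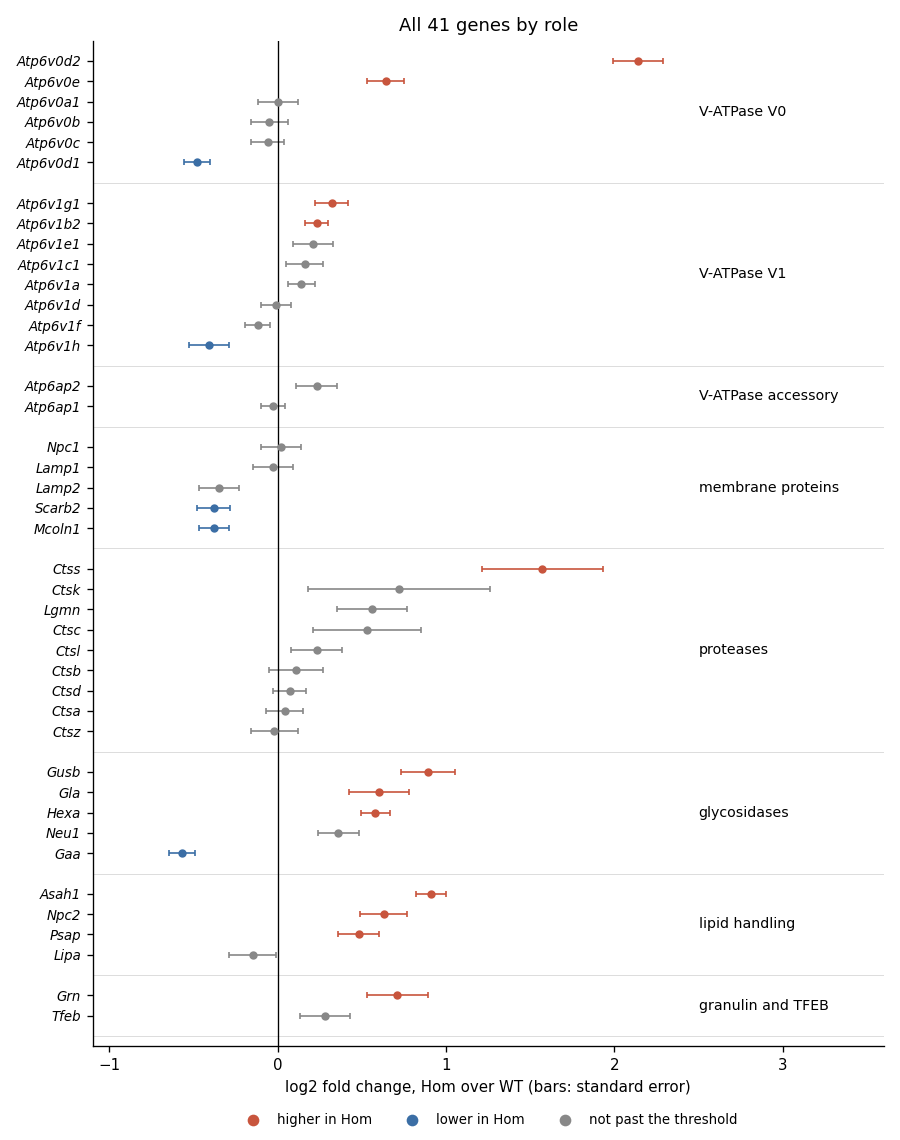
The log2 fold change of each of the 41 genes (x axis, Hom over WT, bars are the standard error) is shown by role, in red where higher, blue where lower and grey where not past the threshold. Changes in both directions occur in V0, in V1 and among the glycosidases, and Atp6v0d2 at 2.14 lies farthest from 0.

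The 16 V-ATPase genes included 4 that were higher and 2 that were lower, with a median log2 fold change of 0.07. The other 25 genes included 8 that were higher and 3 that were lower, with a median of 0.28. By role, the medians were −0.03 for V0, 0.15 for V1, 0.10 for the accessory proteins, −0.35 for the membrane proteins, 0.23 for the proteases, 0.58 for the glycosidases, 0.56 for the lipid genes and 0.50 for progranulin and TFEB. These are descriptions of small groups, and differences between the groups were not tested.

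To look for the CLEAR element or parts of it, promoter windows were read from RefSeq (GRCm38.p6), where 33 of the 41 genes matched. Each window ran from 250 bases before to 50 bases after the start site. The E-box CACGTG was in the windows of 12 of these 33 genes (36.4%), against 8.09% of all 27025 genes with a window. The longer element TCACGTGA, which contains the E-box, was in 7 of 33 (21.2%), against 1.12% of all genes. Among 80 other lysosomal genes with a window, CACGTG was in 18 (22.5%) and TCACGTGA in 7 (8.75%). The full CLEAR palindrome, TCACGTGA with a further G before it and C after it, was in 0 of the 33, in 3 of those 80 and in 0.37% of all genes. Each motif is its own reverse complement, so 1 search covers both strands. The windows around TCACGTGA (in capitals) are shown for all 7 genes that hold it, of which 2 were higher, 2 were lower and 3 did not pass the threshold. They are written 5′ to 3′ on the strand of the gene.
Atp6v0e, higher, chr17:26676372-26676420, plus strand: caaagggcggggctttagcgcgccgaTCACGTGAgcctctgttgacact
Gla, higher, chrX:134601200-134601255, minus strand: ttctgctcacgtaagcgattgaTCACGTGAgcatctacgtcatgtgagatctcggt
Atp6v0d1, lower, chr8:105566040-105566094, minus strand: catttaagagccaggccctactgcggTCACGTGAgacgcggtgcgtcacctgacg
Mcoln1, lower, chr8:3500447-3500506, plus strand: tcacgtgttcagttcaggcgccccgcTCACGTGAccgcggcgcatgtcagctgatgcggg
Ctsa, not past the threshold, chr2:164833734-164833793, plus strand: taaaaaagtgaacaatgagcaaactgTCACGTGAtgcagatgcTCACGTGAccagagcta
Ctsd, not past the threshold, chr7:142387893-142387952, minus strand: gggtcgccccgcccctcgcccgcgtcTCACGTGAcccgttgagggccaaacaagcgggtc
Atp6v1a, not past the threshold, chr16:44139358-44139417, minus strand: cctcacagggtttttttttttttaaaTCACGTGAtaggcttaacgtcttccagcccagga

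The first base of the element lay 4 bases before the start site in Atp6v0d1 (position −4) and at position 3 after it in Atp6v0e. The other called genes that hold it have it farther upstream, at −46 in Mcoln1 and at −228 in Gla. Among the genes not past the threshold it began at −13 in Ctsa, at −99 in Ctsd and at −132 in Atp6v1a. The window of Ctsa holds it more than once, and −13 is the first of these. The median log2 fold change was 0.07 over the 7 genes with TCACGTGA and 0.22 over the 26 without it, of which 6 were higher and 2 were lower. A match of these letters is a description and does not show that a factor binds there. The 8 genes with no window in the table are Atp6v0d2, Atp6v1b2, Atp6v1c1, Atp6v1g1, Atp6v1h, Ctsb, Npc1 and Asah1.

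In the V0 sector, subunit d exists as the broadly used Atp6v0d1 and as Atp6v0d2, which is known from osteoclasts, macrophages and kidney. They went in opposite directions in Hom livers. Atp6v0d2 was at 5.58, 4.36 and 5.41 CPM in WT and at 25.1, 23.4 and 19.2 CPM in Hom livers. Every Hom liver lay above every WT liver, a 4.40-fold rise (log2 fold change 2.14, SE 0.15, adjusted p = 0.000316, edgeR). Atp6v0d1 was at 80.4, 76.1 and 83.1 CPM in WT and at 59.6, 57.6 and 54.5 CPM in Hom livers. It fell without overlap between the groups (log2 fold change −0.48, SE 0.075, adjusted p = 0.00327, edgeR), but with library size alone, where the median of all genes was 0.45, its value was −0.03 and it was not called.

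Because a ratio of FPKM values (fragments scaled by gene length and library size) within 1 liver does not depend on how the libraries are scaled, the isoforms were also set against each other. The ratio of Atp6v0d2 to Atp6v0d1 was 0.0453, 0.0371 and 0.0417 in WT and 0.274, 0.263 and 0.228 in Hom livers. It averaged 0.0414 ± 0.00412 in WT and 0.255 ± 0.024 in Hom livers, a 6.17-fold difference with no overlap (SD, n = 3 mice; two-sided exact permutation test, p = 0.1, the lowest value possible with 3 mice per group). Atp6v0d1 stayed the more abundant transcript in every liver. The ratios reported here were chosen with the genes' changes known.

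Atp6v0e, a small membrane subunit of V0, was at 30.7, 29.6 and 33.5 CPM in WT and at 55.8, 45.2 and 45.7 CPM in Hom livers. It rose without overlap (log2 fold change 0.64, SE 0.11, adjusted p = 0.0042, edgeR). The proteolipid gene Atp6v0c, the most abundant V-ATPase transcript per length at 164 ± 18.9 FPKM in WT livers (SD, n = 3 mice), was at 213, 207 and 190 CPM in WT and at 210, 194 and 182 CPM in Hom livers. These groups overlapped (log2 fold change −0.06, adjusted p = 0.645, edgeR), and the annotation holds 2 pseudogenes named after Atp6v0c that could share its reads. The proteolipid Atp6v0b (log2 fold change −0.05) and the proton-path subunit Atp6v0a1 (0.00) did not pass the threshold either.

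In the V1 sector, 2 of 8 genes rose and 1 fell. Atp6v1b2, a nucleotide-binding subunit, was at 46.5, 47.0 and 46.3 CPM in WT and at 56.8, 54.8 and 52.5 CPM in Hom livers, with no overlap (log2 fold change 0.23, SE 0.068, adjusted p = 0.0325, edgeR). Atp6v1g1, of the peripheral stalk, was also higher (0.32, adjusted p = 0.0383) and Atp6v1h, a regulatory subunit, was lower (−0.41, adjusted p = 0.0326). All 3 calls lay close to the threshold. That of Atp6v1b2 was lost without any 1 of the 6 livers (adjusted p = 0.0581 to 0.0895), although its value stayed at 0.20 to 0.26, near the 0.23 with all livers. After the length correction, which put the median of all genes at −0.20, the value of Atp6v1b2 was 0.014 (adjusted p = 0.894). Atp6v1g1 was not called without WT replicate 2, WT replicate 3, Hom replicate 1 or Hom replicate 2 (up to 0.118), and Atp6v1h kept its call when WT replicate 1 was left out and lost it without each of the other 5 livers (up to 0.101). Exons of Atp6v1h are overlapped on the opposite strand by Rgs20, and whether the counting used strand is not given in the sources used here. Atp6v1f, of the central stalk, had the highest level per length of the V1 genes and was at 46.2, 41.2 and 42.0 CPM in WT and at 39.8, 39.1 and 40.4 CPM in Hom livers (log2 fold change −0.12, adjusted p = 0.242, edgeR). The catalytic subunit Atp6v1a (0.14), Atp6v1c1 (0.16), the stalk subunits Atp6v1d (−0.01) and Atp6v1e1 (0.21) and the assembly factors Atp6ap1 (−0.03) and Atp6ap2 (0.23) did not pass the threshold.

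Atp6ap1 had the higher level per length of the accessory genes, at 90.4, 84.9 and 87.4 CPM in WT and 88.9, 83.4 and 84.6 CPM in Hom livers. Atp6ap2, also known as the prorenin receptor, was at 32.8, 24.0 and 27.9 CPM in WT and at 34.9, 33.5 and 31.2 CPM in Hom livers. Both pairs of groups overlapped, and Atp6ap2 was called without WT replicate 1 (0.35, adjusted p = 0.0382, against 0.23 and 0.169 with all livers).

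**Figure D2:**
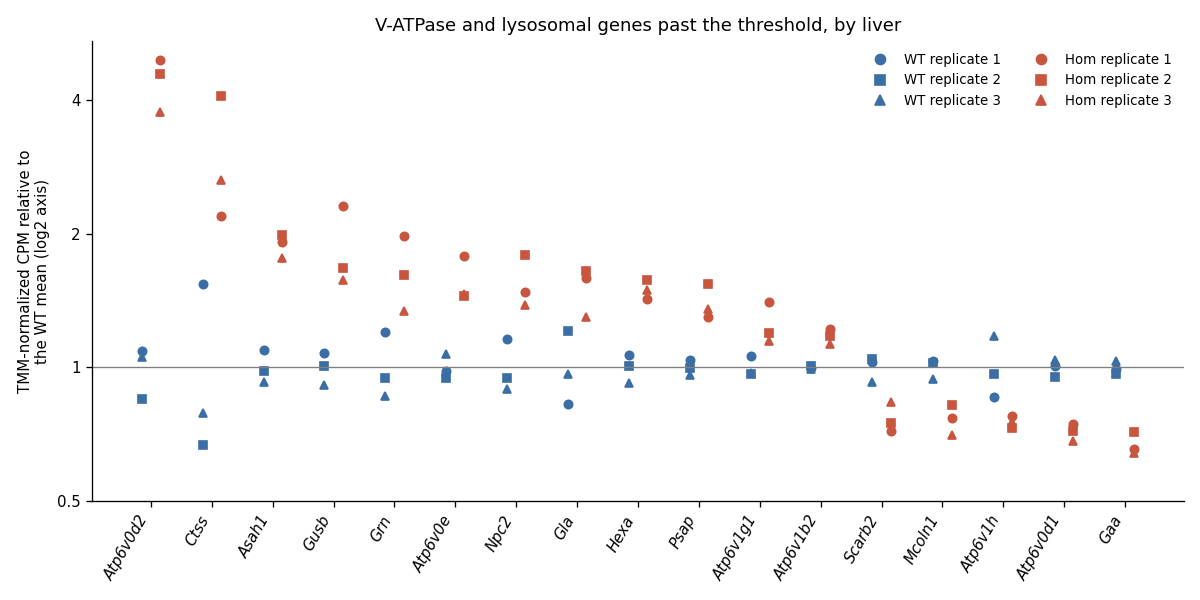
TMM-normalized CPM of the 17 genes past the threshold, relative to each gene's WT mean (y axis, log2 scale), with 1 point per liver. Every Hom point lies above every WT point for the 12 higher genes, narrowly so for Gla, and below every WT point for the 5 lower genes.

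Among the lysosomal membrane proteins no gene rose. Mcoln1, which encodes the calcium channel mucolipin 1, was at 35.4, 35.1 and 32.4 CPM in WT and at 26.4, 28.3 and 24.2 CPM in Hom livers. The groups did not overlap (log2 fold change −0.38, SE 0.088, adjusted p = 0.0133, edgeR). Scarb2, the receptor that brings glucocerebrosidase to lysosomes, was lower by the same amount (−0.38, adjusted p = 0.0202). Lamp1, the membrane protein with the highest level per length (280 ± 6.77 FPKM in WT, SD, n = 3 mice), was at 664, 773 and 710 CPM in WT and 734, 708 and 660 CPM in Hom livers, so these groups overlapped. Its partner Lamp2 had a log2 fold change of −0.35 and an adjusted p of 0.0532 (edgeR), and it was called without WT replicate 1 (−0.43, adjusted p = 0.0302), in DESeq2 with all livers (−0.35, adjusted p = 0.00354) and after the length correction (−0.53, adjusted p = 0.0169, median of all genes −0.20). The cholesterol exporter Npc1 was at 0.02. With library size alone, which put the median of all genes at 0.45, Mcoln1 was at 0.071, Scarb2 at 0.075, Lamp2 at 0.11 and Atp6v1h at 0.054. None of these was called there, and each stayed below that median as it did under TMM. Mcoln1 also lost its call without Hom replicate 3 (adjusted p = 0.0552), and Scarb2 without WT replicate 2 or Hom replicate 2 (up to 0.0701).

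Of the 9 proteases only Ctss passed the threshold. Ctss, cathepsin S, a cysteine protease of antigen-presenting cells, was at 54.8, 23.8 and 28.2 CPM in WT and at 78.0, 145 and 93.8 CPM in Hom livers. It was 2.97-fold higher (log2 fold change 1.57, SE 0.36, adjusted p = 0.0137, edgeR) and kept its call without any 1 liver, with values of 1.27 to 2.02. WT replicate 1 was the highest WT liver and Hom replicate 2 the highest Hom liver. The ratio of Ctss to Ctsd, both lysosomal proteases, was 0.149 ± 0.0687 within WT and 0.421 ± 0.111 within Hom livers, a 2.82-fold difference (SD, n = 3 mice; two-sided exact permutation test, p = 0.1).

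WT replicate 1 was also high in the asparaginyl protease Lgmn, at 88.5 CPM against 54.6 and 51.7 CPM in the other WT livers and 90.2, 108 and 88.7 CPM in Hom livers. Lgmn did not pass the threshold in edgeR with all livers (log2 fold change 0.56, adjusted p = 0.0721). It passed with all livers in DESeq2 (0.56, adjusted p = 0.0318) and with upper-quartile factors (0.65, adjusted p = 0.0492), and without WT replicate 1 (0.84, adjusted p = 0.0037). Ctsc, which activates serine proteases of immune cells, was at 160 CPM in WT replicate 1 and at 82.5 and 83.4 CPM in the others, with 213, 138 and 118 CPM in Hom livers. Among the fits that left out a single liver, it was called only without WT replicate 1 (0.91, adjusted p = 0.0342, against 0.53 and 0.227 with all livers). Ctsk, a collagen-degrading cathepsin, was scarce: 1.40, 1.54 and 5.59 CPM in WT and 5.93, 4.33 and 3.75 CPM in Hom livers. It was called without WT replicate 3 (1.66, adjusted p = 0.0103) and not with all livers (0.72, adjusted p = 0.317).

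The abundant proteases differed less. Ctsb, the most abundant of all 41 genes per length (335 ± 84.2 FPKM in WT, SD, n = 3 mice), was at 814, 603 and 631 CPM in WT and at 717, 810 and 685 CPM in Hom livers, and the groups overlapped (log2 fold change 0.11, adjusted p = 0.598, edgeR). The aspartyl protease Ctsd (0.07), Ctsl (0.23), Ctsz (−0.02) and the carboxypeptidase Ctsa (0.04), which protects neuraminidase in a complex, did not pass the threshold. Reads of Ctsd and Ctsl are uncertain, since each shares an exon on its strand with a predicted gene, and Ctsa, Ctsb, Ctsl, Ctsz, Lamp1, Npc1 and Atp6v0b are overlapped by exons on the opposite strand.

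Macrophage markers also differed between livers. The list of markers for Kupffer cells, the resident macrophages, had a summed level of 494 CPM in WT replicate 1, 219 and 184 CPM in the other WT livers and 158 to 245 CPM in Hom livers. Of these 9 genes 2 fell while none rose, with a median log2 fold change of −0.91. The sum takes in Csf1r and Adgre1, which are not specific to resident cells and were not lower (0.48 and 0.40). The markers of monocyte-derived macrophages summed to 33.4 to 77.5 CPM in WT and 230 to 293 CPM in Hom livers, and 7 of 12 rose while none fell (median log2 fold change 2.64). None of the markers on either list was at 0 in all livers. Csf1r, the receptor that macrophages share, was at 104 CPM in WT replicate 1, 44.3 and 39.1 CPM in the other WT livers, and 76.3, 104 and 80.5 CPM in Hom livers (log2 fold change 0.48, adjusted p = 0.328, edgeR). Without WT replicate 1, Csf1r passed the threshold (1.05, adjusted p = 0.00479). Adgre1, which encodes F4/80, was at 0.40 (adjusted p = 0.213), Trem2, a receptor of lipid-associated macrophages, at 3.31 (0.00202), Gpnmb at 1.93 (0.0683) and Clec4f, specific to Kupffer cells, at −1.59 (0.0271). Adgre1 was called without WT replicate 1 (0.71, adjusted p = 0.0156), and Gpnmb without WT replicate 3 (3.40, adjusted p = 0.00457) and in DESeq2 with all livers (1.92, adjusted p = 0.015). The Clec4f call was lost without WT replicate 1 (−1.06, adjusted p = 0.0541), Hom replicate 1 (0.0539) or Hom replicate 3 (0.0705). The part of these cells in the levels of Ctss, Lgmn, Ctsc and Atp6v0d2 was not tested.

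**Figure D3:**
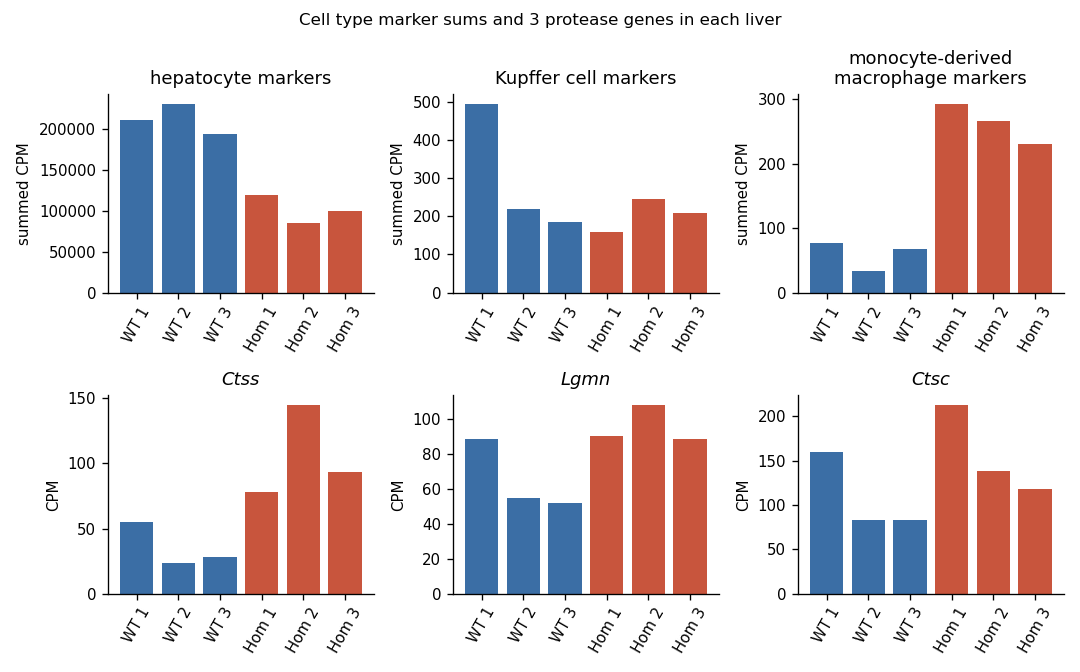
Summed CPM of 3 cell type marker lists (top) and CPM of 3 protease genes (bottom) in each of the 6 livers, with WT in blue and Hom in red. WT replicate 1 is the highest WT liver for the Kupffer cell sum (494 CPM) and for Ctss, Lgmn and Ctsc, while the hepatocyte sum is higher in all WT livers than in any Hom liver.

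The glycosidases split. Gusb, β-glucuronidase, was at 30.4, 28.4 and 25.8 CPM in WT and at 64.9, 47.3 and 44.3 CPM in Hom livers (log2 fold change 0.89, SE 0.16, adjusted p = 0.0052, edgeR). Hexa, the α subunit of β-hexosaminidase, was at 58.1, 54.9 and 50.4 CPM in WT and at 77.8, 85.8 and 81.2 CPM in Hom livers (0.58, SE 0.084, adjusted p = 0.00243). Gaa, the acid α-glucosidase that breaks down glycogen, was at 122, 119 and 127 CPM in WT and at 80.6, 88.1 and 79.0 CPM in Hom livers. Gusb and Hexa thus rose and Gaa fell, each without overlap, Gaa by 0.57 on the log2 scale (standard error 0.079, adjusted p = 0.00212, edgeR). The Gaa call, like that of Atp6v0d1, held without any 1 liver and was absent with library size alone (−0.11, where the median of all genes was 0.45). Within livers the ratio of Gaa to Gusb was 2.96 ± 0.416 in WT and 1.14 ± 0.227 in Hom (SD, n = 3 mice; two-sided exact permutation test, p = 0.1), a ratio that scaling cannot move.

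Gla, α-galactosidase A, was the glycosidase with the lowest level, at 5.58, 8.15 and 6.51 CPM in WT and 10.7, 11.1 and 8.75 CPM in Hom livers. WT replicate 2 lay just under Hom replicate 3, and the call (log2 fold change 0.60, SE 0.18, adjusted p = 0.0356, edgeR) was lost without WT replicate 1, WT replicate 3, Hom replicate 1 or Hom replicate 2 (up to 0.111) and after the length correction (0.35, adjusted p = 0.166, median of all genes −0.20). The sialidase gene Neu1 was at 0.36 with an adjusted p of 0.0518 (edgeR). With all livers it was called in DESeq2 (adjusted p = 0.0389), with upper-quartile factors (0.0251) and with at least 10 counts per liver (0.0348), and it was also called without WT replicate 1 (0.0489) or Hom replicate 3 (0.0367).

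**Figure D4:**
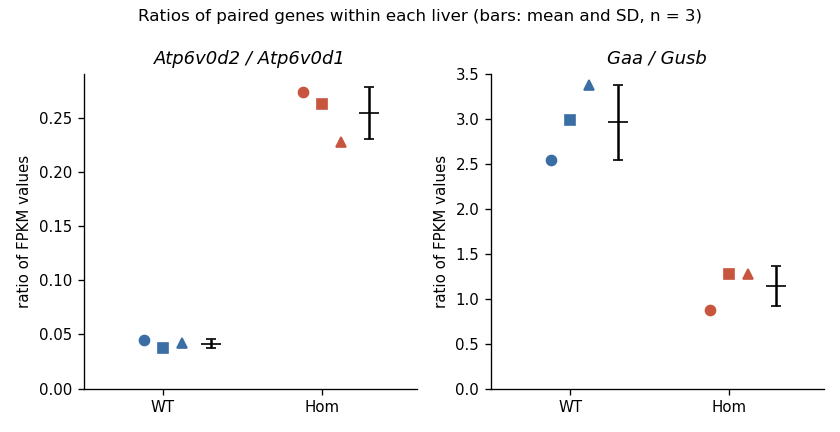
Ratio of the FPKM values of gene pairs within each liver (y axis, no unit), with 1 point per liver and the mean and SD of 3 mice beside it. Atp6v0d2 to Atp6v0d1 is higher in all Hom livers, and Gaa to Gusb is lower in all of them.

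Of the 4 lipid genes, 3 rose. Asah1, acid ceramidase, was at 48.5, 43.4 and 41 CPM in WT and at 84.6, 87.7 and 78.1 CPM in Hom livers, a 1.88-fold difference with no overlap (log2 fold change 0.91, SE 0.092, adjusted p = 0.000763, edgeR). Npc2, which hands cholesterol to Npc1, was at 72.4, 59.3 and 56.0 CPM in WT and at 92.4, 112 and 86.6 CPM in Hom livers (0.63, SE 0.14, adjusted p = 0.011). Npc2 thus rose while its partner Npc1 was at 0.02, and this contrast was not tested. Psap, precursor of the saposins that activate sphingolipid hydrolases, was at 522, 499 and 483 CPM in WT and at 652, 770 and 679 CPM in Hom livers (0.48, SE 0.12, adjusted p = 0.0169). Its groups did not overlap, but the call was lost without WT replicate 2, WT replicate 3, Hom replicate 2 or Hom replicate 3 (up to 0.0667), and after the length correction, with the median of all genes at −0.20, Psap was at 0.28 (adjusted p = 0.0983). Lipa, the acid lipase that cleaves cholesteryl esters and triglycerides, was at −0.15 (adjusted p = 0.418).

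Grn, progranulin, a secreted and lysosomal protein that binds prosaposin, was at 210, 166 and 151 CPM in WT and at 346, 283 and 234 CPM in Hom livers (log2 fold change 0.71, SE 0.18, adjusted p = 0.0204, edgeR). The groups did not overlap, and the call was lost without WT replicate 2 (0.075), WT replicate 3 (0.0675) or Hom replicate 2 (0.0523). Tfeb was at 9.55, 7.63 and 7.99 CPM in WT and at 11.5, 10.3 and 8.79 CPM in Hom livers, and the groups overlapped (0.28, adjusted p = 0.186). Its relatives Tfe3 (0.11), Mitf (0.32) and Tfec (0.25) did not pass the threshold. These are transcript levels, and TFEB is known to be controlled largely by where the protein sits in the cell, which was not measured.

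A further 99 lysosomal genes were listed beside them. Of the 93 tested, 21 were higher (22.6%) and 14 were lower (15.1%), with a median log2 fold change of 0.05. The hydrolases had 11 higher and 5 lower of 36, other membrane proteins 6 and 1 of 23, other V-ATPase genes 2 and 1 of 5, sorting genes 1 and 4 of 16, and nutrient sensing and transcription genes 1 and 3 of 13. Counts of higher genes ran from 12 to 21 and of lower genes from 7 to 14 when 1 liver was left out, with 12 higher and 9 lower without Hom replicate 2, 13 and 7 without Hom replicate 3, and 13 and 10 without WT replicate 3. Without each of these named livers, the higher and lower counts over all genes tested fell as well.

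The higher gene with the smallest adjusted p on that list was Rragd, a Rag GTPase that brings the growth regulator mTORC1 to the lysosome. Rragd was at 2.57, 1.86 and 1.6 CPM in WT and at 83.1, 77.9 and 60.7 CPM in Hom livers, 36.5-fold higher (log2 fold change 5.19, SE 0.21, adjusted p = 9.42e-05, edgeR). Cd63, a tetraspanin of late endosomes, was at 6.87, 5.13 and 7.87 CPM in WT and 31.3, 32.3 and 31.5 CPM in Hom livers (2.26, adjusted p = 0.000281), and the mannosidase Man2b2 at 54.8, 54.8 and 59.3 CPM in WT and 111, 99.2 and 96.1 CPM in Hom livers (0.86, adjusted p = 0.000754). None of these genes had overlapping groups.

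Among the lower genes, the hyaluronidase Hyal1 was at 63.0, 90.3 and 91.5 CPM in WT and 37.5, 36.3 and 43.9 CPM in Hom livers (log2 fold change −1.06, adjusted p = 0.00301, edgeR). Flcn, folliculin, which acts on RagC and RagD, was at 28.9, 36.5 and 30.5 CPM in WT and 17.0, 20.6 and 20.4 CPM in Hom livers (−0.72, adjusted p = 0.00456). Thus Rragd rose while Flcn fell, and so did Lamtor4, of the complex that anchors the Rag GTPases, from 30.3, 31.6 and 29.1 CPM in WT to 21.3, 23.4 and 21.9 CPM in Hom livers (−0.45, adjusted p = 0.00509). The cysteine protease Ctsf was lower as well, at 20.3, 21.6 and 18.9 CPM in WT and 14.7, 14.2 and 12.8 CPM in Hom livers (−0.54, adjusted p = 0.00637). With library size alone, Hyal1 kept its call, whereas Flcn and Ctsf did not and Lamtor4 was at 0.0082. Of the V-ATPase genes on that list, the minor isoform Atp6v0e2 rose from 0.726, 0.834 and 1.17 CPM in WT to 3.69, 4.41 and 4.74 CPM in Hom livers, and its FPKM ratio to Atp6v0e differed 3.10-fold (two-sided exact permutation test, p = 0.1). Tcirg1, an isoform of subunit a known from osteoclasts and immune cells, was also higher (log2 fold change 0.52, adjusted p = 0.037, edgeR). It was at 51.5, 33.9 and 37.5 CPM in WT and 58.8, 63.9 and 54.4 CPM in Hom livers, with no overlap. The FPKM ratio of Tcirg1 to Atp6v0a1 was 1.15, 0.573 and 0.652 in WT and 1.00, 1.25 and 1.05 in Hom livers. These ratios overlapped, with WT replicate 1 inside the Hom range (two-sided exact permutation test, p = 0.3).

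**Figure D5:**
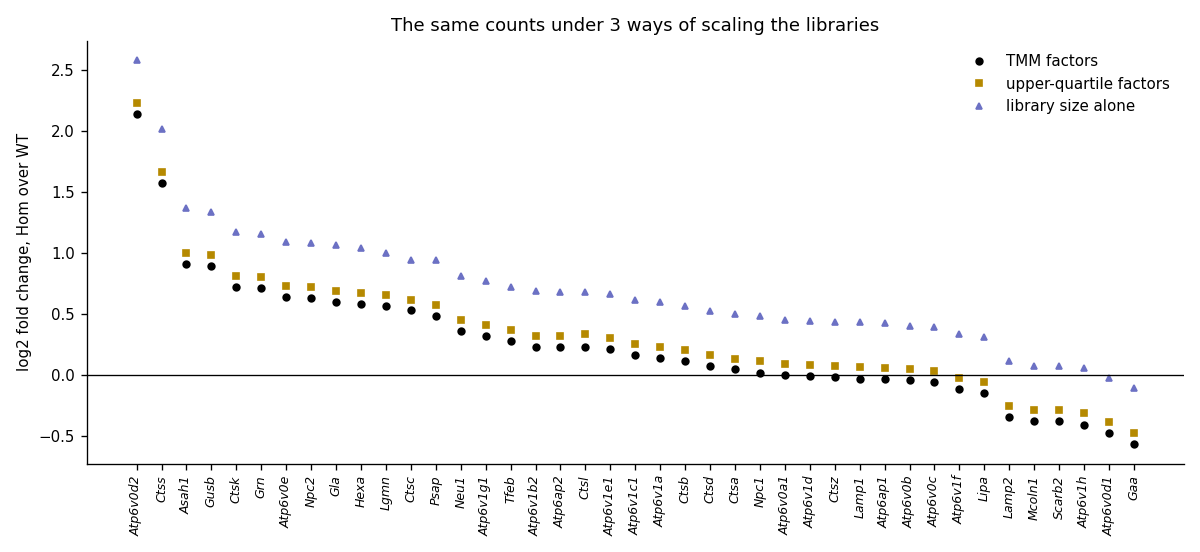
The log2 fold change (y axis, Hom over WT) of the 41 genes, ordered by their value under TMM factors, with the same counts also scaled by upper-quartile factors and by library size alone. Library size alone lifts every gene, so that the values of Mcoln1, Scarb2, Lamp2 and Atp6v1h, below 0 under TMM, come to lie above 0, while Gaa and Atp6v0d1 stay below it.

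Which genes were called thus rested in part on scaling and on single livers. Of the 17 genes past the threshold, 9 kept their call without any 1 liver, and 7 of these kept it under each other scaling, filter, tool or correction tried at the same threshold, as well as without WT replicate 1 and Hom replicate 1 together: Atp6v0d2, Atp6v0e, Ctss, Hexa, Gusb, Npc2 and Asah1. All 7 are higher in Hom, but library size alone lifted every gene and left 0 of the 41 lower. Gaa and Atp6v0d1, both lower, kept their calls in 13 of 14 alternatives and lost them only in that setting. Over all 41 genes, WT replicate 1 was the highest WT liver for 25 and the lowest for 8, Hom replicate 1 was the highest Hom liver for 24, and Hom replicate 3 the lowest for 28.

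Other cell types differed between the groups as well. Markers of cholangiocytes, the bile duct cells, were higher in 9 of 11 and lower in none (summed level 110 to 144 CPM in WT, 671 to 916 CPM in Hom livers), with Krt19 at 3.26 on the log2 scale (adjusted p = 0.000806, edgeR). Most of the Hom sums came from Spp1, at 57.4, 43.2 and 29.3 CPM in WT and 520, 534 and 733 CPM in Hom livers. Stellate cell markers were higher in 7 and lower in 1 of 11 (341 to 401 against 731 to 807 CPM), with Col1a1 at 3.32 (adjusted p = 0.0002), and endothelial markers were lower in 5 of 9 and higher in none (240 to 323 against 166 to 181 CPM). Proliferation genes were higher in 7 of 8 (7.83 to 16.3 against 25.0 to 51.3 CPM), lymphocyte markers in 2 of 6 (6.41 to 9.49 against 8.87 to 15.4 CPM) and neutrophil markers in 0 of 4, the last summing to 101 CPM in WT replicate 1 and 6.35 to 48.3 CPM elsewhere. No marker on these lists was at 0 in all livers, and their part in the levels of the lysosomal genes was not tested. Alb fell from 123821, 122328 and 96358 CPM in WT to 55768, 39606 and 47692 CPM in Hom livers (−1.26, adjusted p = 0.00991), a call lost without Hom replicate 3 (0.0639), beside which Gaa and Atp6v0d1 were also lower.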

How the data were processed

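The authors deposited 1 table of 17975 genes with estimated counts, FPKM and TPM values for each of 6 livers and the mean of each group. Per the labels, 3 livers are WT and 3 are NEK7 hepatocyte knock-out, and total RNA was extracted with Trizol. The submitters' processing notes name HISAT2 2.0.4, Bowtie2 2.2.5, RSEM 1.2.12 and mm9 without their roles, and the strandedness of the libraries is not given in the sources used here. The estimated counts that the authors deposited are not scaled between samples (65.9% are whole numbers). The FPKM values, which the authors scaled by the length of each gene and the size of each library, served for levels, for ratios within a liver and for gene lengths. The TPM values the authors deposited were not used, nor were the mean columns, whose names are crossed between the groups for all 17975 genes.

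Estimated counts were rounded and tested with edgeR 4.0.16 under R 4.3.3 (filterByExpr, 13805 genes kept; TMM; glmQLFit and glmQLFTest), with Benjamini-Hochberg adjustment over all genes tested and a threshold of 0.05 with no minimum fold change. The standard error is the log2 fold change over the square root of F. P-values measure the spread between these 6 mice. Alternatives were DESeq2 1.42.0, each liver left out, a block on the replicate number, scaling by library size alone or with upper-quartile factors, keeping all genes or those with 10 or more counts in all livers, a loess correction for gene length, and a log2 fold change of 1 or more in size. Ratios were tested with an exact permutation test (scipy 1.17.1). Promoter windows are from RefSeq (GRCm38.p6) and exon overlaps from GENCODE M21 on GRCm38, another build than the mm9 named in the notes, so both were matched by gene symbol. The procedure was tested on simulated data. The members and gene lists were chosen with earlier results of these data known. Values per liver are given for Nek7, for genes past the threshold with a log2 fold change of 0.5 or more in size, for the gene with the smallest adjusted p and the gene with the highest WT FPKM in each role, and for the 4 higher and 4 lower genes of the further list with the smallest adjusted p (1 gene is not reported here); those of other genes were added after their values were seen.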

Additional observations from a re-analysis of the deposited data

How the results depend on the processing

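Of 810 comparisons of 58 named genes with their value under an alternative, 664 kept direction and call, 51 lost the call, 40 gained it and 55 changed sign. For each change below, the cause was not tested.

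With library size alone, 6574 genes were higher and 642 lower, 31 of the 41 lysosomal genes were higher and 0 lower (V0 5 and 0, V1 7 and 0, membrane proteins 2 and 0), and 63 of the further lysosomal genes were higher and 1 lower. Higher were also 2 accessory genes, 6 proteases and 2 of the pair progranulin and TFEB, and 0 glycosidases were lower. Signs changed for Atp6v0a1 (0.45), Atp6v0b (0.40), Atp6v0c (0.39), Atp6v1d (0.44), Atp6v1f (0.33), Atp6v1h (0.054), Atp6ap1 (0.42), Lamp1 (0.43), Lamp2 (0.11), Scarb2 (0.075), Mcoln1 (0.071), Ctsz (0.43), Lipa (0.31) and Lamtor4 (0.0082). This setting moved the median of all genes by 0.45, so these values lie at or below that median.

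With upper-quartile factors, 3 of the 41 genes were lower (V1 0, membrane proteins 1), 2 proteases were higher, and signs changed for Atp6v0a1 (0.086), Atp6v0b (0.045), Atp6v0c (0.030), Atp6v1d (0.078), Atp6ap1 (0.058), Lamp1 (0.060) and Ctsz (0.075). DESeq2 called 2 proteases higher. With at least 10 counts in every liver, signs changed for Atp6v0a1 (0.042), Atp6v0b (0.00099), Atp6v1d (0.034), Atp6ap1 (0.015), Lamp1 (0.016) and Ctsz (0.031). After the length correction, which put the median of all genes at −0.20, 4627 genes were lower, 1 V1 gene was higher, 1 lipid gene was lower, and 13 further lysosomal genes were higher and 27 lower. It turned the signs of Atp6v1a (−0.13), Npc1 (−0.27), Ctsa (−0.12), Ctsb (−0.0018) and Ctsd (−0.057).

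A minimum size of 1 for the log2 fold change left 1825 higher and 575 lower genes, 2 and 0 of the 41 (V0 1 and 0, V1 0 and 0, glycosidases 0 and 0), 0 lower membrane proteins, 0 higher lipid genes, 0 higher of progranulin and TFEB, and 6 and 1 of the further list.

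With 1 liver left out, or with WT replicate 1 and Hom replicate 1 left out together (a setting chosen after seeing the data), 1767 to 2871 genes were lower, 7 to 14 of the 41 higher and 3 to 6 lower. By role, 0 to 1 V1 genes were higher and 0 to 1 lower, 0 to 1 accessory genes higher, 1 to 3 membrane proteins lower, 1 to 3 proteases higher and 0 to 1 of progranulin and TFEB higher, and 12 to 22 of the further list were higher and 7 to 18 lower. Signs changed for Atp6v0a1 (−0.18 to 0.055), Atp6v0b (−0.10 to 0.053), Atp6v1d (−0.070 to 0.026), Ctsa (−0.019 to 0.17), Ctsz (−0.12 to 0.081), Lamp1 (−0.11 to 0.023), Lipa (−0.28 to 0.034) and Npc1 (−0.085 to 0.10), none of which was called with all livers.

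WT and Hom livers share replicate numbers but come from different mice, and the numbers did not pair them: deviations from the group means correlated at −0.111, −0.0611 and −0.0577 for numbers 1, 2 and 3, and 0 of 6 livers correlated best with their own number. With the replicate block, 3 of the 41 genes were lower and 13 higher (V1 1 higher and 0 lower, membrane proteins 1 lower, proteases 2 higher), and Atp6v0a1 was at 0.0012. Ctsk, Atp6v0d2, Gla and Tfeb had the lowest levels and so the fewest counts behind their values; what counting limits was not tested.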
